A study of Mus musculus with 2 samples.

Results

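Gas5, Snhg1, Snhg3, Snhg5, Snhg6, Snhg8 and Snhg12 are noncoding genes that carry small nucleolar RNAs (snoRNAs) in their introns. They were taken by name from the count table, and all 7 were found among its 22556 genes. The libraries came from the iXist-ChrX-Dom line of mESCs (embryonic stem cells of the mouse), a single female Dom/129S x Cast clone, in which a TetOn promoter replaces that of the endogenous Xist gene on the Dom/129S allele. Both samples were untreated (0 h, no induction) and grown in serum with LIF, with feeder fibroblasts removed beforehand, and they form 1 group of 2 replicates. The series therefore allows no comparison of conditions, and the question for these genes is how highly each is expressed before Xist is induced and how closely the replicates agree on it. Nothing says whether the replicates were separate cultures, so p-values measure only the difference between these libraries, which may be technical.

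A snoRNA host gene is transcribed and spliced like an mRNA, and the snoRNAs are trimmed out of its excised introns. Box C/D snoRNAs guide the methylation of ribose in ribosomal and spliceosomal RNA, box H/ACA snoRNAs guide the conversion of uridine to pseudouridine, and a few act in the cleavage of the ribosomal RNA precursor. The spliced exons of noncoding hosts are often a short-lived by-product. Many such hosts begin with a terminal oligopyrimidine (TOP) tract, as the mRNAs of ribosomal proteins do, and several are degraded by nonsense-mediated decay once translated. Gas5, found as a transcript that accumulates in growth-arrested cells, is the best known of them.

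The 7 genes held 27 annotated snoRNA loci on their own strand (GENCODE M21, GRCm38, the assembly of mm10). Gas5 held 9 and Snhg1 8, Snhg12 held 4, Snhg3 and Snhg5 2 each, and Snhg6 and Snhg8 1 each. These loci were 60 to 205 bases long and took between 4.15% (Snhg6) and 23.4% (Snhg3) of the span of their host. In the 1 transcript per gene that was drawn, 26 of the 27 loci had no base in an exon, and the exception was Snora73a of Snhg3, which overlapped the first exon of a transcript that starts inside the gene. Over all annotated transcripts that span a locus, 24 of the 27 overlapped an exon of at least 1 transcript. The letters TGATGA within the first 25 bases together with CTGA within the last 20, the usual form of boxes C and D, were found in 17 of the 27. Another 5 had ACA placed 3 bases before the 3′ end and not both of the other boxes. Of all 1558 annotated snoRNA and small Cajal body RNA transcripts, searched the same way on their own strand, 20.2% had the first pair and 19.1% the second motif alone. The sequences of 9 loci show both classes, with at least 1 from every host and boxes C and D or the ACA in capitals (5′ to 3′, from the GENCODE transcripts).
Snord80 of Gas5, chr1:161037601-161037681 (+ strand): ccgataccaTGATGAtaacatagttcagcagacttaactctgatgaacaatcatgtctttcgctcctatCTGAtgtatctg
Gm23246 of Snhg1, chr19:8725594-8725660 (+ strand): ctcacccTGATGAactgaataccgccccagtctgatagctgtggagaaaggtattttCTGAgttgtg
Snord50a of Snhg5, chr9:88521529-88521600 (− strand): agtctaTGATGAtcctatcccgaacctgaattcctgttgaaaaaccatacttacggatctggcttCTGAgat
Snord50b of Snhg5, chr9:88521797-88521868 (− strand): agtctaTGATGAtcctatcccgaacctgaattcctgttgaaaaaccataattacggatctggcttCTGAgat
Snord87 of Snhg6, chr1:9942463-9942549 (− strand): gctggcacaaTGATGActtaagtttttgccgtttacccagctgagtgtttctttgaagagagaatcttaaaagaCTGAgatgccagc
Snord99 of Snhg12, chr4:132310691-132310764 (+ strand): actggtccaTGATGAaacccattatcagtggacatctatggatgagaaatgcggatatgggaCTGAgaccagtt
Snora16a of Snhg12, chr4:132309464-132309600 (+ strand): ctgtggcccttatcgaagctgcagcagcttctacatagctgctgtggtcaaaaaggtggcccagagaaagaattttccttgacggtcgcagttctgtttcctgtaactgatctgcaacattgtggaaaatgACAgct
Snora24 of Snhg8, chr3:123507937-123508066 (− strand): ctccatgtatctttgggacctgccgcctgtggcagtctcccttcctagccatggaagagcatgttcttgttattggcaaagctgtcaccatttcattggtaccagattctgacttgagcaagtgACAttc
Snora73a of Snhg3, chr4:132352775-132352979 (− strand): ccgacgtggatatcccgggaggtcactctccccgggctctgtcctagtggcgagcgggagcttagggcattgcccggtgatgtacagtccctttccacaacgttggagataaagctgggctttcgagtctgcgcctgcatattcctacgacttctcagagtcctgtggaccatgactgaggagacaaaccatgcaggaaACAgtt
Snord50a and Snord50b, both in Snhg5, differed at a single base (C50A, the base of Snord50a first, counted from 1 at its 5′ end) and were 98.6% identical over 72 bases. Snora73a and Snora73b, both in Snhg3, differed at 7 of 205 bases (96.6% identity). A read lying wholly in such a pair may fit both copies, so fragments from them are uncertain, although both copies of each pair belong to the same host and a shared fragment would still be counted there or dropped.

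**Figure D1:**
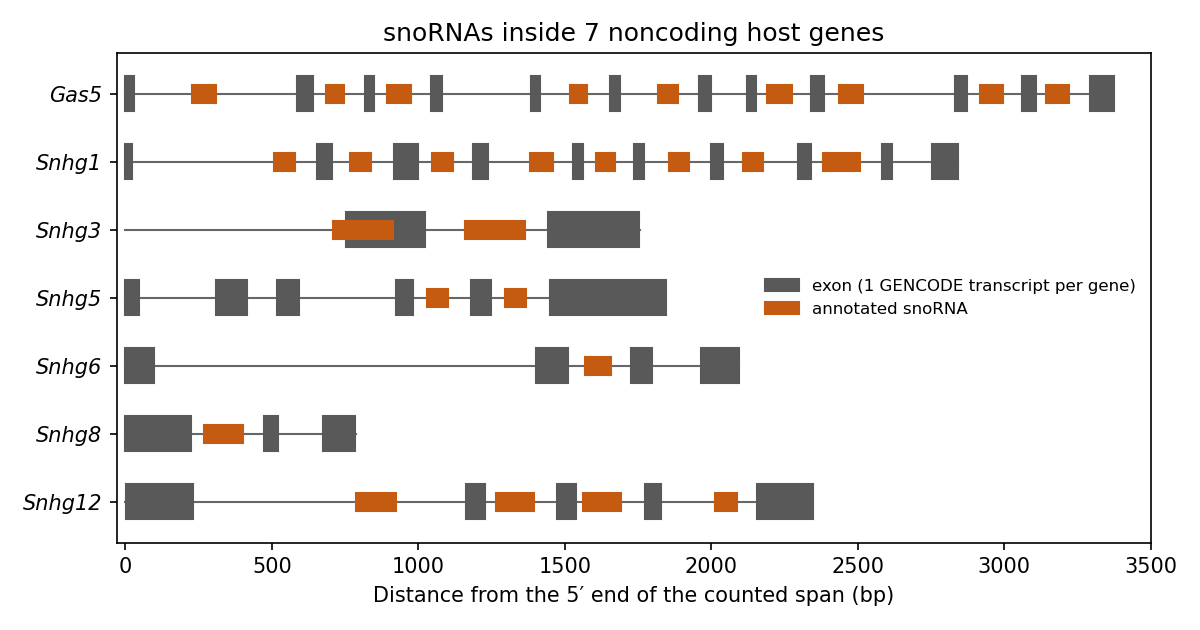
Exons of 1 GENCODE transcript per gene (grey) and annotated snoRNAs (orange) against the distance from the 5′ end of the counted span, in bp, for the 7 host genes. Gas5 and Snhg1 alternate short exons with 9 and 8 snoRNAs, and Snhg6 and Snhg8 hold 1 each.

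The hosts are compact. Their spans ran from 786 bp (Snhg8) to 3373 bp (Gas5), against a median of 15760.5 bp over all genes, and exons covered from 25.2% of the span in Gas5 to 76.8% in Snhg8. Gas5 (ENSMUSG00000053332.13) lies at chr1:161035165-161038537 and Snhg1 (ENSMUSG00000108414.1) at chr19:8723486-8726326, both on the + strand. Snhg12 (ENSMUSG00000086290.9) at chr4:132308677-132311024 on the + strand and Snhg3 (ENSMUSG00000085241.7) at chr4:132351932-132353686 on the − strand share a chromosome. Snhg5 (ENSMUSG00000097195.9) at chr9:88521052-88522897, Snhg6 (ENSMUSG00000098234.7) at chr1:9942024-9944118 and Snhg8 (ENSMUSG00000104960.1) at chr3:123507551-123508336 are on the − strand. All positions are mm10 as deposited, where starts lie 1 base before those of the annotation.

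The start of a host is where a TOP tract would lie, so a window from 45 bases before to 20 bases after the annotated start is shown for the 6 hosts found in the RefSeq promoter table (build GRCm38.p6). Snhg6 was not matched. Capitals mark TATA within bases −45 to −15 and a run of at least 5 pyrimidines (C or T) that reaches into bases −5 to +15. These windows and motifs were chosen after the sequences had been seen.
Gas5, chr1:161035121-161035185 (+ strand): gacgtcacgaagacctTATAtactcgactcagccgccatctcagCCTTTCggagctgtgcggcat
Snhg1, chr19:8723442-8723506 (+ strand): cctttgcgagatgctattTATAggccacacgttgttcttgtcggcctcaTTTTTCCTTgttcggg
Snhg3, chr4:132353667-132353731 (− strand): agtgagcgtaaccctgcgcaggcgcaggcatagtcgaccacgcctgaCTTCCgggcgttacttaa
Snhg5, chr9:88522878-88522942 (− strand): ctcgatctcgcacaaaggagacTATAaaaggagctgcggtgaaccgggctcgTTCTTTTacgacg
Snhg8, chr3:123508317-123508381 (− strand): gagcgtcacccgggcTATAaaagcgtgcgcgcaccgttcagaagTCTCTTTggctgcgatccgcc
Snhg12, chr4:132308633-132308697 (+ strand): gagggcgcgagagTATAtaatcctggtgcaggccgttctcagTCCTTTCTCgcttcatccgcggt
A pyrimidine run was found in 6 of 6 windows, against 44.1% of all 32851 promoters in that table. It began at −1 in Gas5 and Snhg8 and at −3 in Snhg12, and was 6, 7 and 9 bases long there. In Snhg1, Snhg3 and Snhg5 it lay wholly downstream of the annotated start, which may differ from the start used in these cells. TATA, which reads the same on both strands, was found in 5 of 6 windows, against 6.72% of all promoters, and Snhg3 had none there. These are matches of letters and do not show a bound factor or a regulated transcript.

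Gas5 and Snhg1 were by far the highest of the 7 hosts, and the levels of the others fell over a wide range. Levels are given in transcripts per 1000000 (TPM), which divides counts by gene length. The length was either the deposited span, introns included, or the union of annotated exons. On the exonic scale the mean levels ran from 114 TPM (Snhg8) to 3334 TPM (Gas5), a 29.2-fold range. Their median was 551 TPM, against 5.53 TPM over all genes with a count. On the span scale the median of the 7 was 1173 TPM, against 3.95 TPM over all genes with a count, and the range was 11.03-fold. Without division by length the median of the 7 was 123 counts per 1000000, against 5.01 over all genes with a count. In bulk RNA, a level set by fewer cells and one set by less RNA per cell cannot be told apart.

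Gas5 was counted 21740 times in replicate 1 and 16829 times in replicate 2. This gave exonic levels of 3398 and 3271 TPM, a mean of 3334 ± 89.7 TPM (SD, n = 2), and the 12th highest mean of the table. Snhg1, with its 8 snoRNA loci, had 20868 and 16327 counts and exonic levels of 3209 and 3122 TPM, with a mean of 3165 ± 61.4 TPM (SD, n = 2) at rank 14. Without division by length Gas5 and Snhg1 ranked 139 and 145. Their ratio of counts was 1.04 in replicate 1 and 1.03 in replicate 2. The 2 genes together took 74.1% of the counts of the 7 hosts in replicate 1 and 79.2% in replicate 2, so a sum over these hosts is mostly a sum of Gas5 and Snhg1. On the span scale the order of the pair was turned round, with 4380 ± 50.0 TPM for Gas5 and 5019 ± 95.1 TPM for Snhg1 (SD, n = 2). The first 2 ranks of the hosts therefore depend on the length used, in both replicates.

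Snhg3, Snhg5 and Snhg6 formed a middle group. Snhg3, the host of Snora73a and Snora73b, had 3504 and 1983 counts, or 802 and 565 exonic TPM (683 ± 168 TPM, SD, n = 2). Its only basic transcript starts inside the gene, so its exonic length lacks the first exon. Snhg5, the host of the Snord50 pair, had 5072 and 2880 counts, or 646 and 456 exonic TPM (551 ± 134 TPM, SD, n = 2). Snhg6, the host of Snord87, had 3319 and 2162 counts, or 451 and 365 exonic TPM (408 ± 60.6 TPM, SD, n = 2). In each gene replicate 1 was the higher, and the ranges of Snhg3 and Snhg5 overlapped, while those of Snhg5 and Snhg6 did not. On the span scale Snhg5 (1617 ± 333 TPM) stood above Snhg3 (1173 ± 245 TPM) in place of below it, and the ranges of Snhg3 and Snhg6 (991 ± 109 TPM) overlapped (SD, n = 2).

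Snhg12 and Snhg8, which hold the Snora loci outside Snhg3, were the lowest on either scale. Snhg12 had 2421 and 1361 counts, or 227 and 159 exonic TPM (193 ± 48.3 TPM, SD, n = 2). Snhg8, the shortest gene, had 607 and 346 counts, or 134 and 94.7 exonic TPM (114 ± 27.5 TPM, SD, n = 2). Their exonic ranges did not overlap, but on the span scale (604 ± 129 and 455 ± 92.6 TPM, SD, n = 2) they did. The lowest host was thus still well above the median gene. It ranked 2019 by exonic mean, 333 by span mean and 5852 without division by length. The exonic order Gas5, Snhg1, Snhg3, Snhg5, Snhg6, Snhg12, Snhg8 was the same in both replicates, as was the span order.

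**Figure D2:**
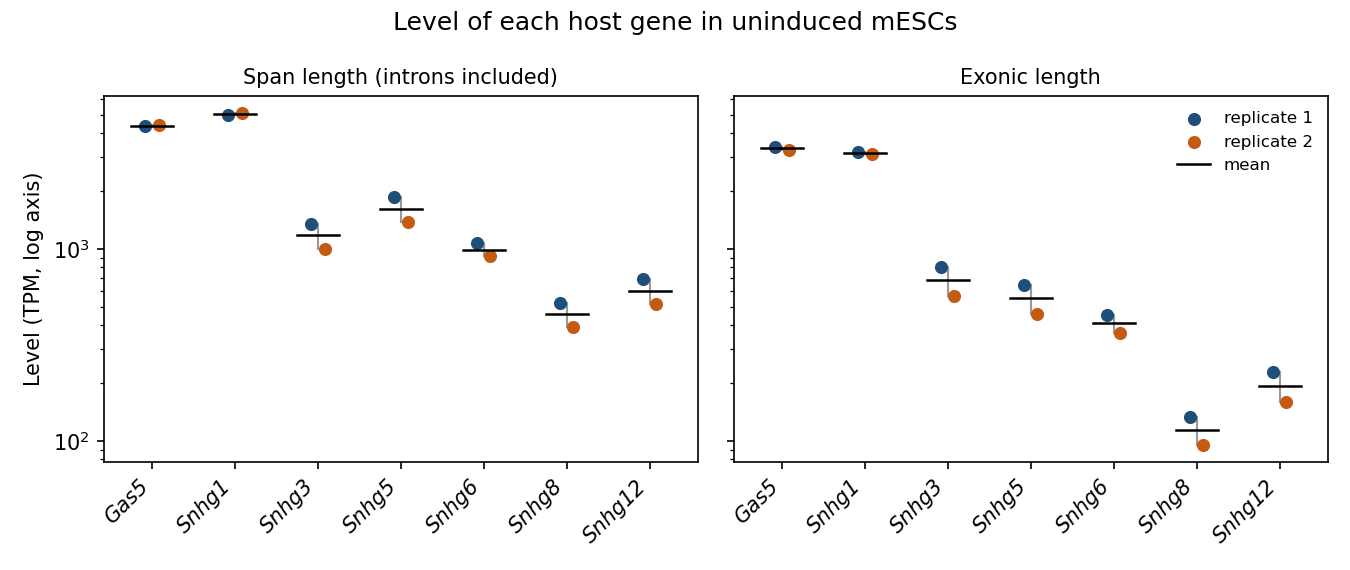
Level of each host gene in TPM on a log axis, with span length (left) and exonic length (right); points are replicate 1 (blue) and replicate 2 (orange) and the black line is their mean. Gas5 and Snhg1 stand at 3122 TPM or more in every library on both scales. Both are higher in replicate 2 by span length and lower by exonic length, and the other 5 genes are lower in replicate 2 on both.

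Counts cover the whole span, so fragments from exons, from retained introns and from the snoRNAs themselves are summed and cannot be told apart in these values. The libraries were made from RNA selected for polyadenylation, and mature snoRNAs carry no poly(A) tail. The study describes intronic reads as scarce in these data, but how much of each host's count came from introns was not tested.

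Counts of the hosts took a smaller share of replicate 2 than of replicate 1. The 7 genes held 0.243% of all counts in replicate 1 (95% Wilson binomial interval 0.241 to 0.245%) and 0.207% in replicate 2 (0.205 to 0.209%), of totals of 23716499 and 20275749 fragments. All 7 were lower in replicate 2 by a two-sided exact binomial test against the ratio of totals with Benjamini-Hochberg adjustment over 14536 genes, where 60.8% of all genes were called in either direction, 45.7% were called lower and 15.1% higher. With libraries this deep the test calls small differences. On this scaling the 2 libraries differed in most of the genes tested, but in 37.4% of all 22556 genes when none were left out for low counts. The intervals describe counting error alone, as PCR copies of a molecule could not be recognised.

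Scaled by library totals, Gas5 and Snhg1 differed least between the libraries, whereas with DESeq2 size factors Snhg6 did (−0.080). The log2 ratio of counts per 1000000 (CPM), replicate 2 over replicate 1, was −0.14 for Gas5 (95% exact interval −0.17 to −0.11, adjusted p = 2.78e-21) and −0.13 for Snhg1 (−0.16 to −0.10, adjusted p = 1.28e-16). Both values were close to the median of −0.17 over the 9736 genes counted 50 times or more in both libraries, at percentiles 52.6 and 54.1. Gas5 and Snhg1 were thus placed near the middle of the transcriptome by this ratio. Their direction depended on the scaling, since trimmed mean of M-values (TMM) factors put them at 0.081 and 0.097 and DESeq2 size factors at 0.17 and 0.18. TMM moved every gene by 0.22 and DESeq2 by 0.31. With TMM 5 hosts were called lower and 2 higher, where 57.8% of all genes tested were called, 30.7% lower and 27% higher. With DESeq2 factors 4 hosts were called lower and 2 higher, against 26.1% and 31.6% of all genes and 57.8% in either direction.

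The other 5 hosts were lower than the median gene. The log2 CPM ratio was −0.60 for Snhg3 (−0.68 to −0.52, adjusted p = 6.10e-49), −0.59 for Snhg5 (−0.66 to −0.52, adjusted p = 1.87e-69) and −0.60 for Snhg12 (−0.70 to −0.51, adjusted p = 4.13e-35). Snhg8, with the fewest counts and so the widest interval, was at −0.58 (−0.78 to −0.39, adjusted p = 4.41e-09). Snhg6 was at −0.39 (−0.47 to −0.31, adjusted p = 3.30e-22). The 4 genes Snhg3, Snhg5, Snhg8 and Snhg12 therefore lay between −0.60 and −0.58, and their percentiles among all genes were 23.2 to 24.1, with Snhg6 at 34.9. These 5 kept their direction with TMM (−0.38 to −0.17) and with DESeq2 size factors (−0.29 to −0.08), though Snhg6 was no longer called with the latter (adjusted p = 0.0741). Across genes the log2 ratio had a standard deviation of 0.53, so each host lay within 1 such deviation of the median gene. For 12648 genes edgeR put the common coefficient of biological variation at 0.279.

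The replicates also differed in how counts followed base composition, which touches each of these ratios. Over 9694 genes the log2 ratio fell with the GC content of the longest basic transcript (Spearman's rho = −0.67, given as a description, since genes of the same 2 libraries are not independent). Host GC ran from 41.5% (Snhg6) to 51.7% (Gas5). After the trend of all autosomal genes was taken out, the ratios were −0.69 for Snhg3, −0.56 for Snhg6, −0.52 for Snhg5, −0.38 for Snhg8, −0.32 for Snhg12 and −0.25 for Snhg1, and Gas5 turned to 0.38. Snhg1 was then no longer apart from Snhg8 and Snhg12. All 7 were called, 6 lower and 1 higher, where 44.6% of all genes were called, with 21.6% lower and 23% higher. Among genes within 1 percentage point of the same GC content, the percentile was 2.26 for Snhg3, 2.97 for Snhg6, 5.14 for Snhg5, 11.2 for Snhg8, 13.1 for Snhg1 and 15.9 for Snhg12. Each of these 6 hosts stood lower among genes of like GC content than among all genes. Gas5 stood higher, at percentile 79.

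The value of Gas5 rests on which transcript gives its GC content. Its 5 basic transcripts have between 44.2% and 52.8% GC, and the ratio after removal of the trend ran from −0.14 to 0.44 over them. With the transcript of most exons that starts nearest to the counted start, an alternative added after the data were seen, Gas5 was at −0.14 (lower, as without the correction), Snhg1 at −0.27, Snhg12 at −0.20 and Snhg8 at −0.081 (adjusted p = 0.561). The order of these hosts by their ratio therefore also depends on the transcript. Neither a direction for Gas5 nor a difference for Snhg8 is therefore given beyond GC content.

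**Figure D3:**
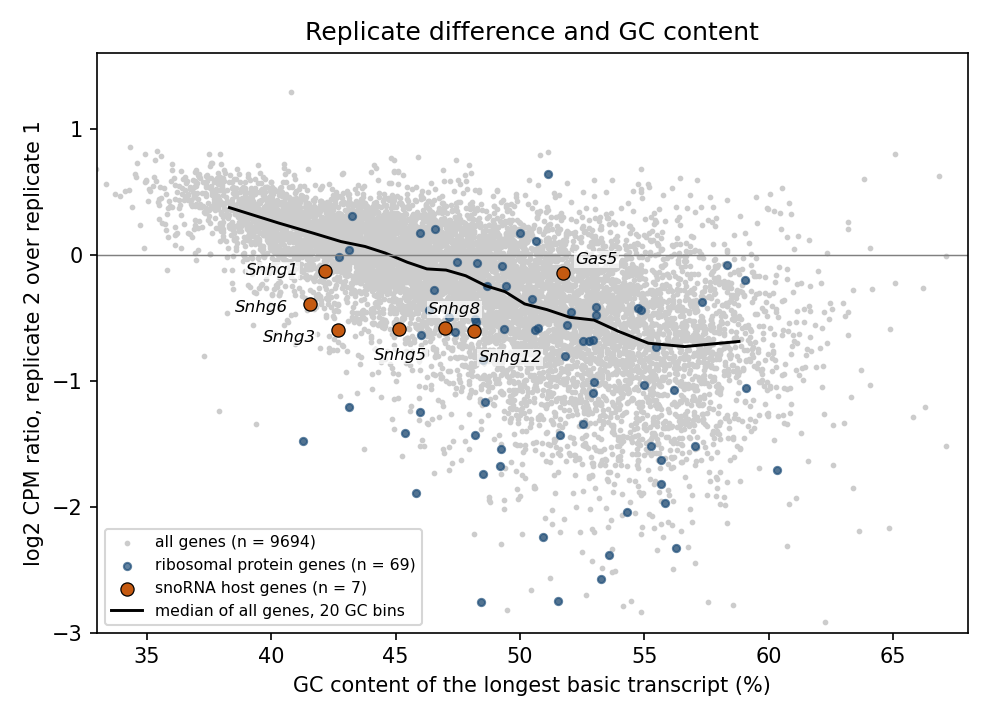
The log2 CPM ratio of replicate 2 over replicate 1 against the GC content of the longest basic transcript (%), for all genes counted 50 times or more in both libraries (grey), ribosomal protein genes (blue) and the 7 hosts (orange). The black line joins medians of 20 GC bins, and 9 genes lie outside the axes. Gas5 lies above the line and the other 6 hosts below it.

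Of the genes beside them, only Zbtb37 and Slc3a2 began within 2000 bp of a host start, and no gene of the table overlapped a host. Slc3a2, the heavy chain of amino acid transporters, starts 117 bp from Snhg1 on the other strand. It had 2163 and 1251 counts and an exonic mean of 81.8 TPM. The log2 ratio of Slc3a2 was −0.56 (adjusted p = 6.94e-28), against −0.13 for Snhg1. Once the GC trend was removed it was 0.06, against −0.25 for Snhg1. Zbtb37, a zinc finger gene 906 bp from Gas5 on the other strand, had 513 and 486 counts and a mean of 3.95 TPM. Its log2 ratio was 0.15 (adjusted p = 0.152). In each pair the noncoding host was the far more abundant transcript.

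In the plane of log2 exonic TPM and log2 replicate ratio, over 9694 genes and 2 libraries, Gas5 and Snhg1 were each other's nearest gene, at a distance of 0.0766. The ratio used here was not corrected for GC content. By the longest transcript, the corrected ratios of Gas5 and Snhg1 lay apart, at 0.38 and −0.25. The nearest to the others were Dynll1 for Snhg3, Ash2l for Snhg5, Mkrn1 for Snhg6, Scpep1 for Snhg8 and Snw1 for Snhg12, at 0.00803 to 0.101. Dynll1 is a dynein light chain, Ash2l a subunit of histone H3K4 methyltransferases and Snw1 a spliceosome protein. Likeness in 2 libraries of the same cells says nothing of shared control.

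Other noncoding hosts had a lower median level than the 7. Of 16 others listed by name, 15 were in the table and 14 were tested, with 9 called lower in replicate 2, 1 higher and 4 not called. Meg3, among the lower (−0.76), held no annotated snoRNA on its strand. The shares over all genes were 45.7% lower and 15.1% higher. With the GC trend removed, 6 were lower and 1 higher, against 21.6% and 23% of all genes. The median exonic level was 26.2 TPM over the 13 with an exonic length, and the median log2 ratio was −0.55, or −0.20 with the GC trend removed. Snhg4 (2801 and 1724 counts, 348 span TPM) and Snhg7 (866 and 290 counts, 137 span TPM) had no exonic length and are not in that level. The highest was Rian, an imprinted noncoding RNA with 13 snoRNA loci, at 729 and 888 exonic TPM (809 ± 112 TPM, SD, n = 2) and a log2 ratio of 0.20. Next came 1500012F01Rik, the row of Zfas1, at 948 and 516 TPM (−0.97), and 2410004N09Rik, the row of Epb41l4aos, at 310 and 358 TPM (0.12, adjusted p = 0.108). With the GC trend removed Rian turned to −0.20 (called lower), 1500012F01Rik moved to −0.21 and 2410004N09Rik to 0.83 (called higher). By exonic mean, Rian and 1500012F01Rik were above Snhg3, 2410004N09Rik was between Snhg6 and Snhg12, and none of those with an exonic length reached Gas5 or Snhg1. By span mean the order was turned round, with Snhg3 (1173 TPM) above Rian (1051 TPM) and 1500012F01Rik (953 TPM). The exonic levels of Rian in replicate 1 and of 1500012F01Rik in replicate 2 were also below those of Snhg3. Without division by length, Rian, at 3324 and 3808 CPM, was above Gas5, at 917 and 830 CPM. Snhg9 had no count in either library, which allows up to 0.126 and 0.148 CPM. Annotation gave 32 noncoding hosts besides the 7, which share most of these names. Among them 16 of 28 tested were lower and 2 higher (median −0.47, or −0.15 with the GC trend removed, when 9 were lower and 2 higher). There 2410006H16Rik, at 367 TPM, came after Rian and 1500012F01Rik in exonic level.

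Protein-coding hosts had about the ratio of the median gene. Of 258 by annotation, 238 were tested, with 126 lower, 58 higher and 54 not called, against 45.7% lower and 15.1% higher over all genes. Their median log2 ratio was −0.17, equal to that of all genes to 2 decimals, and with the GC trend removed 79 were lower and 84 higher (median 0.025), against 21.6% and 23% of all genes. The 3 most abundant were Rpl39 at 10373 ± 803 TPM, the translation factor Eif4a2 at 4066 ± 82.7 TPM and Rpl23 at 2911 ± 501 TPM (exonic, SD, n = 2). Only Rpl39 and Eif4a2 of these exceeded Gas5. Eif4a2 had a log2 ratio of −0.047, Rpl39 of −0.25 and Rpl23 of −0.44. Without the GC trend these were −0.29, 0.080 and −0.28, so that Rpl39 turned direction.

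Ribosomal protein genes share the TOP tract with many hosts, and most of them were lower in replicate 2. Of 81 cytosolic ribosomal protein genes, 76 were tested, with 60 lower, 5 higher and 11 not called. Over all genes 45.7% were lower and 15.1% higher. The median log2 ratio was −0.68, or −0.46 with TMM and −0.37 with DESeq2 factors. With the GC trend removed the median was −0.28, with 42 lower and 15 higher, against 21.6% and 23% of all genes. The 29 that host a snoRNA themselves had 24 of 28 tested lower, none higher and a median of −0.60, or 17 lower, 5 higher and −0.28 with the GC trend removed. The 3 most abundant ribosomal protein genes were Rpl39, Rps27l at 3424 ± 212 TPM (SD, n = 2, log2 ratio 0.04, adjusted p = 0.0524) and Rpl23. Many ribosomal protein genes have processed copies elsewhere in the genome, so their counts are uncertain. Their ratios spread more widely than those of the hosts, with quartiles of −1.48 and −0.38 against −0.59 and −0.27.

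Among the genes of snoRNA-binding proteins, 7 of 8 were lower in replicate 2, where 45.7% of all genes were, and this changed for several with GC content. The box H/ACA core had 4 of 4 genes lower, with a median log2 ratio of −0.84. With the GC trend removed 3 of 4 were lower, where 21.6% of all genes were, with a median of −0.39. Gar1 then went from −0.58 to 0.17 (adjusted p = 0.276). Dkc1, the pseudouridine synthase, was high at 2407 ± 251 TPM (log2 ratio −0.30), ahead of Nop10 at 121 ± 88.1 TPM (−1.74) and Nhp2 at 59.5 ± 28.5 TPM (−1.10, or −0.45 without the GC trend, exonic, SD, n = 2). In the box C/D core 3 of 4 were lower, with a median of −0.86. With the GC trend removed 3 of 4, not all the same genes, were lower and none higher, with a median of −0.51. Fbl, the methyltransferase, went from −0.76 to −0.010 with that correction (adjusted p = 0.999). Nop58 was at 323 ± 23.8 TPM (0.06, called higher, but −0.13 once the GC trend was removed), Nhp2l1 (Snu13) at 161 ± 66.2 TPM (−0.95) and Nop56 at 146 ± 84.6 TPM (−1.34, or −0.89 without the GC trend). Dkc1, Nop56 and Nop58 carry snoRNA loci of their own. The exonic mean levels of the scaffolds Nop56 and Nop58 were thus below those of every middle host, from Snhg6 up. Without division by length Nop58, at 925 and 966 CPM, was above Gas5, at 917 and 830 CPM.

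Factors that act on snoRNAs or on host transcripts had medians nearer to that of all genes, where 45.7% of genes were lower and 15.1% higher, or 21.6% and 23% with the GC trend removed. Of 11 genes for snoRNP assembly and cap formation, 8 were lower and 2 higher, with a median of −0.24 (−0.01 with TMM and 0.08 with DESeq2 factors). Once the GC trend was removed 4 were lower and 1 higher (median 0.0060). The most abundant were Naf1 (224 TPM, 0.36, or 0.64 without the GC trend), Nufip1 (156 TPM, −0.15) and the cap methylase Tgs1 (93.0 TPM, 0.12, or −0.025 and not called with the GC trend removed). Of 10 genes of nonsense-mediated decay, 4 were lower, 2 higher and 4 not called, with a median of −0.28 (−0.05 with TMM and 0.03 with DESeq2 factors). That correction left 3 lower and 4 higher (median 0.083). Upf3b was the most abundant at 431 TPM (0.16, or 0.053 and not called with the GC trend removed), and the kinase Smg1 was at 110 TPM (0.00084, not called, or 0.056 and called without the GC trend). Of 9 regulators of TOP mRNAs, 5 were lower and 4 higher, with a median of −0.12 (0.11 with TMM and 0.19 with DESeq2 factors). After the same correction 1 was lower and 4 were higher (median 0.15). Cnbp, which binds TOP mRNAs, was at 2573 TPM (0.17), Tial1 at 248 TPM (0.22, or 0.039 and not called with the GC trend removed) and Tia1 at 158 TPM (0.31, or 0.13 without the GC trend). As TMM and DESeq2 factors shift all genes alike (the median of all genes from −0.17 to 0.051 and 0.14), they leave the place of each list against all genes as it was.

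**Figure D4:**
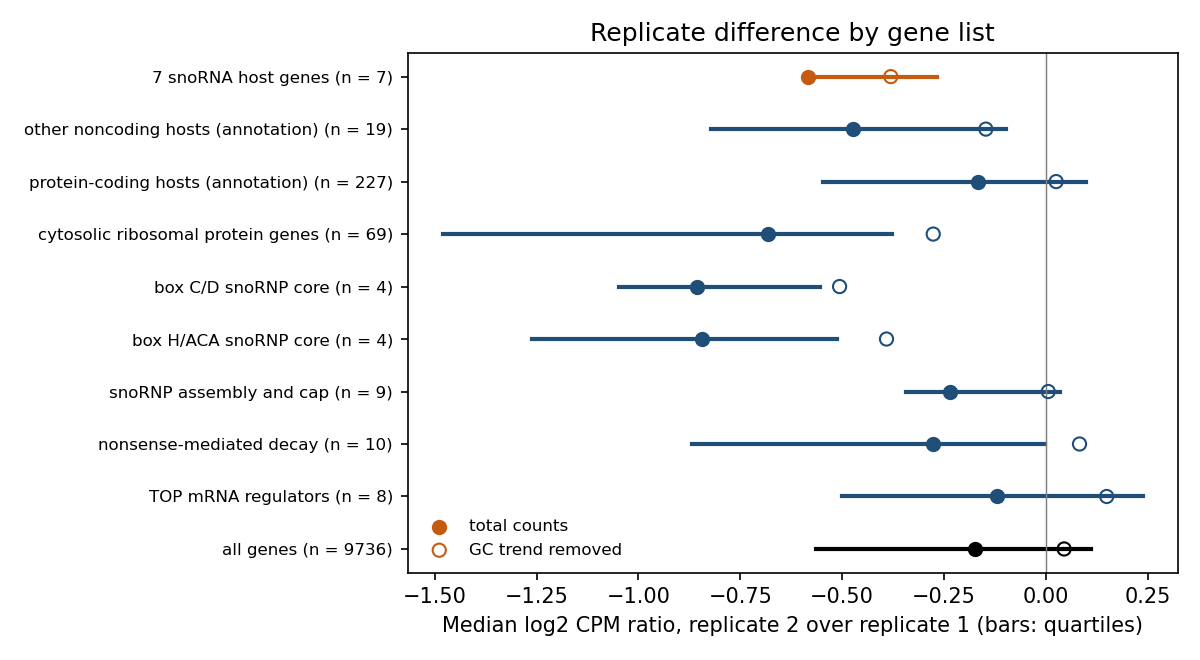
Median log2 CPM ratio of replicate 2 over replicate 1 (filled points) with quartiles (bars) for the hosts and other gene lists, over genes counted 50 times or more in both libraries, and the median after removal of the GC trend (open points). The 7 hosts have a median of −0.58 against −0.17 for all genes, and −0.38 against 0.05 after removal.

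Marker genes fitted the ES state in the sample titles, although the cell type label reads mESC to NPC. All 10 ES cell markers were at 10 exonic TPM or more in mean, with summed levels of 4846 and 4302 TPM in replicates 1 and 2. No neural precursor marker of 6 reached 10 TPM (sums 5.03 and 4.22 TPM), and Sox1 and Olig2 were at 0. Among 8 markers of feeder fibroblasts only Fn1 (118 TPM), which other cells also express, did so, with sums of 119.7 and 119.5 TPM, and Lum was at 0. Of the ES cell markers 9 of 10 were called lower in replicate 2 and Zfp42 higher, against 45.7% and 15.1% of all genes. With the GC trend removed 6 markers were lower and 3 higher, against 21.6% and 23% of all genes. The median log2 ratio of the ES cell markers was −0.36, or −0.12 without the GC trend. The most abundant, Tdgf1, Zfp42 and Nanog, were at −0.26, 0.047 and −0.18. Pou5f1, Dppa3 and Esrrb, named after their values were seen, had the 3 lowest ratios, at −2.76, −1.60 and −1.24, or −1.99, −1.52 and −0.55 without the GC trend. Their part in the difference between the hosts of the 2 libraries was not tested.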

How the data were processed

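Polyadenylated RNA of 2 samples was analysed, with groups and replicate numbers from the labels. The authors deposited raw counts per gene, made with featureCounts 1.5.2 per the file headers, which counted fragments in reverse-stranded mode over whole transcript spans of a non-redundant mm10 long-RNA annotation. The submitters' processing notes also name Bowtie2 2.3.2 and STAR 2.4.2a; the alignment of these libraries is not given in the sources used here. The column names lack a letter that the sample descriptions carry, and were matched by the rest.

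Total counts were 23716499 and 20275749. TPM used the deposited length (span), or the union of GENCODE M21 basic exons, matched for 98.1% of 22556 genes. Log2 ratios were taken on CPM after adding 0.5 counts. The 2 counts of each gene were tested with an exact binomial test (SciPy 1.17.1) for genes counted 10 times or more over both libraries. P-values were adjusted by Benjamini-Hochberg at 0.05, and the test compares libraries, not conditions. It was checked on simulated Poisson counts without a GC trend or extra variation, so the check does not cover those features of the real libraries. Scaling factors came from edgeR 4.0.16 (TMM) and DESeq2 1.42.0, and edgeR gave a common dispersion. The GC trend was a polynomial of degree 3 on autosomal genes counted 50 times or more in both libraries. All 7 hosts, the 3 most abundant genes of each list, undetected genes of short lists, nearest genes and genes within 2000 bp were named by rule, except for some that are not reported here. Members and lists were chosen with earlier results of these data known.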

Additional observations from a re-analysis of the deposited data

How the results depend on the processing

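No paired analysis was possible because both libraries belong to the same group. Of 76 alternatives over 18 results, other than leaving out a replicate, 40 kept their side of the threshold or moved by less than 1 SD (for counts of genes, less than 1.5 times), 29 moved further, 2 lost their call and 5 turned direction. For the median log2 ratio the limit was instead the 95% exact interval of Snhg8, the host at the median (−0.78 to −0.39). The log2 replicate ratio of Gas5 turned to 0.081 with TMM, 0.17 with DESeq2 factors and 0.38 with the GC trend removed, and that of Snhg1 to 0.097 with TMM and 0.18 with DESeq2 factors. The median ratio of the 7 hosts was −0.36 with TMM, −0.27 with DESeq2 factors, −0.38 with the GC trend removed and −0.27 with the GC content of the other transcript (added after seeing the data). The number of hosts called lower, a count added after seeing the data, was 7, and 5 with TMM, 4 with DESeq2 factors and 6 with the GC trend removed by either transcript, where 45.7%, 30.7%, 26.1% and, for the longest transcript, 21.6% of all genes were called lower. The median level was 1173 TPM with span length, 551 TPM with exonic length, 542 TPM with the longest transcript and 123 CPM without length, and between 1000.0 and 1346 TPM when either replicate was left out, which with 2 replicates cannot move a mean by 1 SD and so is no check of stability. The shifts with another scaling or length follow from how it is built. With 2 replicates the SD of a level is itself imprecise, and depth limits Snhg8 most, at 607 and 346 counts.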
